A study of Mus musculus with 10 samples.

Results

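Aminoacyl-tRNA synthetases are the enzymes that join each amino acid to its transfer RNA. Their genes were examined in RNA-seq of Lin− bone marrow, that is, marrow from which cells bearing the surface markers of mature blood lineages had been depleted with a bead kit. The genes were picked by name, in a choice made with earlier results of these data known, and all 35 listed genes were found among the 55359 genes of the table. Of these, 16 whose symbols end in 2 encode mitochondrial enzymes, and 19 encode enzymes that are cytosolic or shared with mitochondria, including Farsa and Farsb. One group, labelled WT, comprised 5 Dhx9f/f mice, in which the helicase gene Dhx9 is flanked by loxP sites on both alleles and no Cre is present. The other, labelled cKO, comprised 5 Dhx9f/f;MX1 mice, which carry the same floxed alleles and a Cre transgene under the Mx1 promoter. That promoter responds to interferon and is active in tissues other than blood, and the study gave poly(I:C), a synthetic double-stranded RNA that provokes interferon, to induce Cre. For some other experiments, the legends of the paper time mice of both genotypes from the first poly(I:C) injection. Whether the WT mice that were sequenced also received poly(I:C) is not given in the sources used here. An effect of poly(I:C) and an effect of the genotype thus cannot be told apart. The labels give neither age nor strain. Each library came from a separate mouse.

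Each synthetase recognises a particular amino acid and the transfer RNAs that carry it, and the products feed the elongating ribosome. Cells keep a cytosolic set and a mitochondrial set, both encoded in the nucleus, and the mitochondrial set serves the few proteins made inside the organelle. Several cytosolic enzymes are bound together in a multisynthetase complex held by the scaffold proteins Aimp1, Aimp2 and Eef1e1. When amino acids are short, uncharged transfer RNA activates the kinase Eif2ak4 (GCN2), which leads to translation of the transcription factor ATF4. ATF4 acts with C/EBP proteins on short DNA elements near its target genes, and many cytosolic synthetase genes are known as ATF4 targets. Erythroid precursors, which make large amounts of globin, are known for heavy protein synthesis.

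The core of such an element reads TGATGNAA, and it is shown here because the change of the cytosolic set was set against it below. It was searched on both strands in the RefSeq promoter table (build GRCm38.p6), which gives 250 bases before and 50 after each gene start, and 26 of the 35 genes had an entry, 12 cytosolic and 14 mitochondrial. No entry was found for Cars1, Hars1, Lars1, Nars1, Rars1, Vars1, Wars1, Hars2 or Pars2. The sequence occurred in 5 of the 12 cytosolic promoters and in 0 of the 14 mitochondrial ones, where 3.97% of all 32851 promoters of the table held it (1304 promoters). The stricter TGATGCAA, each occurrence of which is also one of TGATGNAA, occurred in 4 of the 5 and in 0.895% of all promoters. In Aars1 it was a second match, which began at -112 from the gene start and is not printed below. Each line gives 30 bases around 1 match of each of the 5 genes, the nearest to the gene start, written in the direction in which the element reads as above, with the 8 matched bases in capitals. 
Aars1: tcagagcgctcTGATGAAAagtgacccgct
Gars1: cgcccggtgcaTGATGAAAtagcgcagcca
Iars1: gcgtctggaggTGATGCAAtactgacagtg
Tars1: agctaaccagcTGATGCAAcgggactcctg
Yars1: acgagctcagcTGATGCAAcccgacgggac
By exact match to GRCm39, the Aars1 stretch lies at chr8:111760472-111760501, that of Gars1 at chr6:55014945-55014974 and that of Iars1 at chr13:49835602-49835631, all on the minus strand. Those of Tars1 and Yars1 lie at chr15:11399741-11399770 and chr4:129083688-129083717, on the plus strand. All 30 bases of each stretch fall in annotated exons of the gene itself in the GENCODE vM39 annotation. Counted on the gene's own strand from the RefSeq start, the match began at 10 in Aars1, at -30 in Gars1, at 8 in Iars1, at -15 in Tars1 and at 4 in Yars1. A match of letters is a description and does not show binding.

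The deposited values are FPKM, a unit that divides fragments by gene length and library size. Levels can thus be set side by side between genes, while comparisons between libraries depend on the scaling, since the summed FPKM was 302510 to 309884 in WT and 312598 to 320963 in cKO. Read from the steps between low values, depth was 15038000 to 18712000 fragments (median 16568000) in WT and 13826000 to 17188000 (median 15910000) in cKO, so 1 FPKM stood for 13.8 to 18.7 fragments per kilobase of transcript. Dhx9 itself ranged from 65.43 to 72.42 FPKM in WT but from 130.82 to 156.49 in cKO, higher under the label that stands for its deletion. A value per gene does not show whether the floxed part was lost. By qRT-PCR and western blot, the paper reported less Dhx9 in bone marrow of Dhx9f/f;MX1 mice. All directions below rest on the labels. The X-linked Xist was at 99.19 to 127.76 FPKM in WT 3 to 5 and at 0.09 or less elsewhere. The Y-linked Ddx3y was at 0 to 0.05 in the same 3 libraries and at 19.66 to 38.53 in the other 7. By these genes WT 3 to 5 read as female and all other libraries as male, so sex was not balanced between the labels. Among marker lists of blood cell types, 12 of 13 erythroid genes passed as higher in cKO, their summed level being 2362.52 to 3868.99 FPKM against 693.42 to 1806.8 in WT, where WT 3 was highest. Of the stem and progenitor genes, 8 of 9 were lower (22.78 to 46.66 against 90.54 to 123.17 FPKM in sum), and Procr was listed at 0 in cKO 1. Of the monocyte and dendritic genes, 9 of 10 were lower (8 to 259.38 against 875.14 to 1532.26 FPKM in sum). So were 7 of 8 megakaryocyte, 5 of 10 neutrophil, 3 of 6 B lymphoid and 4 of 8 T and NK genes. On the same rule, an adjusted p under 0.05, 16.7% of all genes tested were higher and 28.3% lower. Of the neutrophil genes, 3 had fitted changes above 0, and 0 passed as higher. In bulk RNA, a change in the mix of cells and a change of RNA per cell cannot be told apart, and the part of the cell mix in the results below was not tested. Library cKO 1 stood apart from the other 4 labelled cKO at many of the genes described, as did WT 3 within WT, so values are also given without them.

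The cytosolic set was higher as a group in the libraries labelled cKO, and the mitochondrial set much less so. On an adjusted p under 0.05 alone, 17 of 19 cytosolic genes (89.5%) were higher, where 16.7% of all 18742 genes tested were, and 0 were lower, where 28.3% of all genes were. None of the 19 had a fitted change below 0, so 0 were lower on an unadjusted p as well. The median log2 fold change was 0.63 for the cytosolic genes and 0.21 for the mitochondrial ones, beside -0.11 over all genes tested. Among the 16 mitochondrial genes, 5 (31.2%) were higher and 1 (6.25%) was lower on adjusted p. On an unadjusted p under 0.05 these counts were 7 and 1, a rule on which the share over all genes was not taken. With a change of at least 2-fold required as well, 3 cytosolic genes (15.8%) were called higher against 4.6% of all genes, and 0 mitochondrial genes were called in either direction against 4.6% higher and 16.8% lower among all genes. All 35 genes passed the filter on low values, with means of at least 1 FPKM. The test was limma on log2(FPKM + 0.1) with Benjamini-Hochberg adjustment over all genes tested. The 2-fold count of 3 rested in part on single libraries, since it was 6 without cKO 1, 5 without WT 3 and 7 without both. The mitochondrial count of 5 depended on the scaling of the libraries, at 9 with median-ratio scaling and 11 with quantile normalization. With a covariate for Xist, which separates the libraries by sex, it was 2, and the cytosolic count of 17 was 12. The cytosolic median with that covariate was 0.69. Counts over all genes tested moved as well. Those higher on adjusted p were 3138 in the main fit and 2035 with the covariate for Xist. They were 3765 with median-ratio scaling and 4703 with quantile normalization. Quantile normalization itself moved the median of all genes to 0.10, and the share of genes called at 2-fold that were higher from 21.5% to 41.3%.

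**Figure D1:**
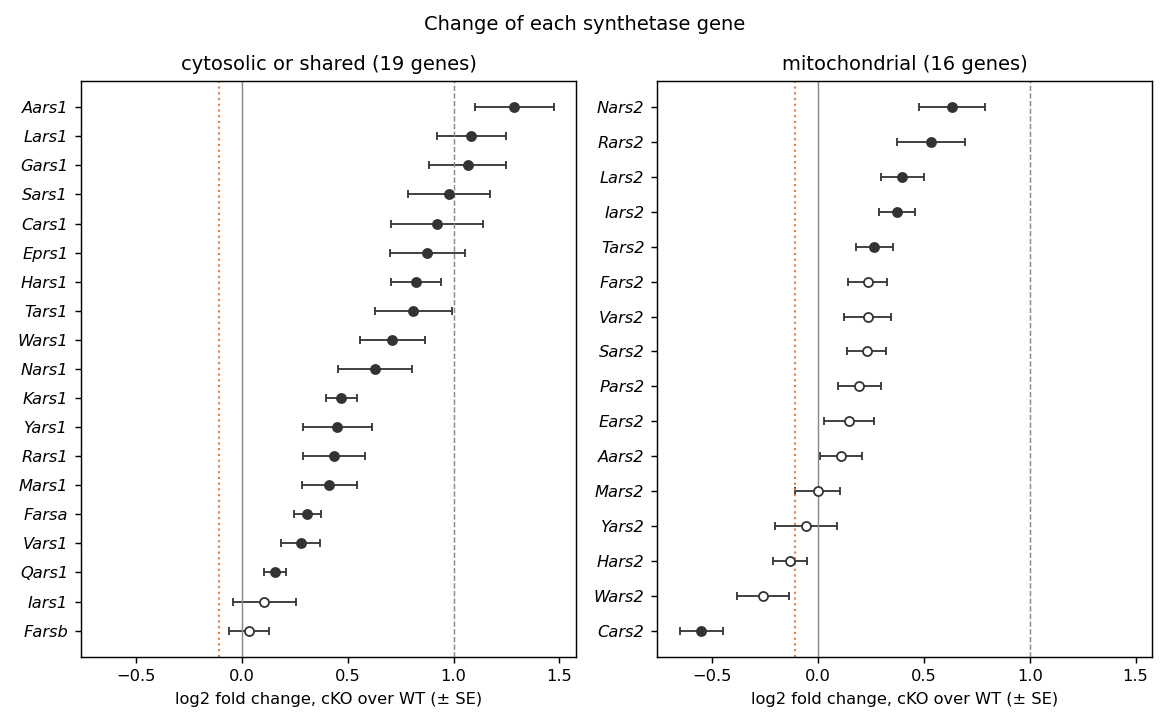
Log2 fold change of each synthetase gene (libraries labelled cKO over WT, 5 libraries each, on log2(FPKM + 0.1)) with its standard error, for the 19 cytosolic or shared genes and the 16 mitochondrial genes; filled points passed an adjusted p under 0.05, the dashed line marks 2-fold and the dotted line the median of all genes tested (-0.11). All 19 cytosolic points lie above 0, from 0.03 for Farsb to 1.29 for Aars1, while the mitochondrial points run from -0.55 for Cars2 to 0.63 for Nars2.

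Levels of the 2 classes were set apart in every library. Summed over its 19 genes, the cytosolic set stood at 601.56, 735.26, 866.62, 696.46 and 638.36 FPKM in WT 1 to 5. In cKO 1 to 5 the sum was 844.88, 1177.76, 1178.2, 1087.95 and 1211.61 FPKM. Thus 4 of the 5 libraries labelled cKO lay above all WT libraries, and cKO 1 lay just under WT 3. The mitochondrial sum, over 16 genes, was 121.43 to 139.88 FPKM in WT and 133.67 to 154.27 in cKO, with cKO 1 again lowest of its label and WT 3 highest of WT. The ratio of the 2 sums, which cancels any scaling of a whole library, was 4.95 to 6.20 in WT and 6.32 to 7.95 in cKO, so its groups did not overlap although cKO 1 remained nearest to WT. As a mean of log2(FPKM + 0.1) over the genes, the cytosolic set was at 5.03 ± 0.214 in WT and 5.65 ± 0.226 in cKO, and the mitochondrial set at 2.77 ± 0.0798 and 2.92 ± 0.0954 (SD, n = 5 each). Without cKO 1 and WT 3, the median change was 0.86 for the cytosolic genes and 0.24 for the mitochondrial ones.

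**Figure D2:**
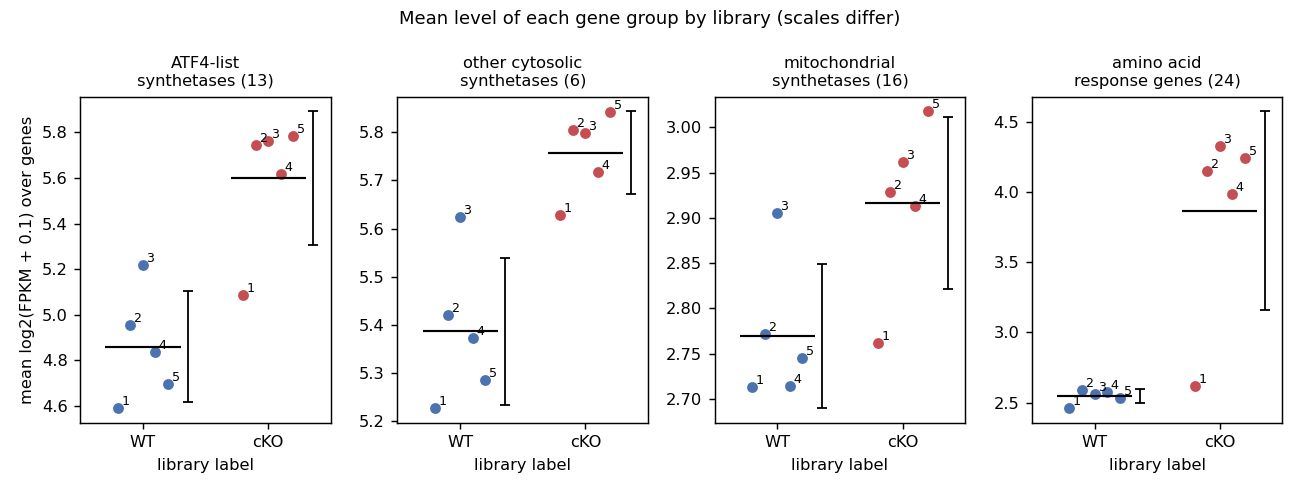
Mean of log2(FPKM + 0.1) over the genes of a group in each library, numbered by replicate, for WT and cKO; lines are group means, bars to the right are SD (n = 5 each), and the vertical scales differ. In the synthetase groups WT 3 is the highest WT library and cKO 1 the lowest cKO library, and in the amino acid response genes cKO 1 lies at 2.62, near the WT libraries, while cKO 2 to 5 lie between 3.99 and 4.33.

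Aars1, Lars1 and Gars1 were the 3 genes called at 2-fold, and in all of them the groups did not overlap. Aars1 (ENSMUSG00000031960), which encodes the alanine enzyme, was at 14.69, 20.51, 26.03, 17.53 and 15.72 FPKM in WT 1 to 5 and at 29.96, 49.7, 52.47, 47.53 and 51.16 in cKO 1 to 5. The mean of 18.9 ± 4.56 FPKM in WT rose to 46.2 ± 9.24 (SD, n = 5 each), and the fitted log2 fold change was 1.29 (SE 0.186, adjusted p = 0.00034 by limma). Even cKO 1, the lowest of its label by far, was above WT 3, the highest of WT. Lars1 (ENSMUSG00000024493), the leucine enzyme, which is also known as a leucine sensor for mTORC1, was at 27.3, 29.31, 37.75, 28.91 and 26.2 FPKM in WT and at 40.81, 71.9, 69.98, 63.78 and 75.54 in cKO. Its log2 fold change was 1.08 (SE 0.165, adjusted p = 0.000441). Again WT 3 and cKO 1 were the libraries nearest to the other group. Gars1 (ENSMUSG00000029777), whose single gene supplies the glycine enzyme to both cytosol and mitochondria, was at 46.88, 66.22, 81.11, 65.94 and 59.22 FPKM in WT and at 85.83, 150.87, 154.26, 131.84 and 150.95 in cKO, with a log2 fold change of 1.07 (SE 0.181, adjusted p = 0.000815). With Hars1 it was among the most abundant of the 35 genes in both groups. In the promoter search, Aars1 and Gars1 held the element, and Lars1 had no entry.

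**Figure D3:**
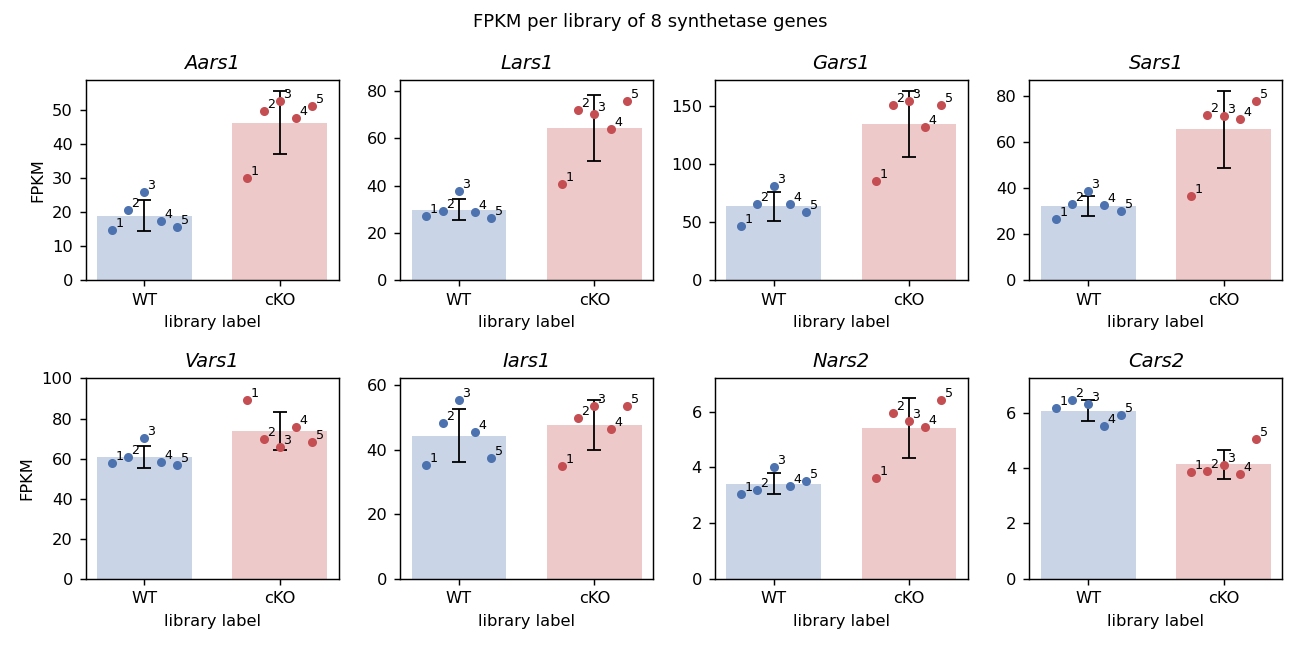
FPKM of 8 synthetase genes in each library, numbered by replicate, with bars for the group mean from 0 and error bars for the SD (n = 5 each). For Aars1, Lars1 and Gars1 all cKO libraries lie above all WT libraries, for Sars1 and Nars2 cKO 1 lies within the WT range, for Vars1 cKO 1 is highest, Iars1 overlaps fully, and Cars2 is lower in cKO.

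A further group of cytosolic genes rose in cKO 2 to 5 while cKO 1 stayed within the range of the WT libraries. Sars1, the serine enzyme, was at 26.75, 33.31, 38.81, 32.76 and 29.93 FPKM in WT and at 36.41, 71.83, 71.23, 69.97 and 77.67 in cKO, with a log2 fold change of 0.98 (SE 0.193, adjusted p = 0.00197). Its cKO 1 value fell below WT 3, and its other 4 were all well above every WT value. Cars1, the cysteine enzyme, was at 7.75, 10.03, 13.82, 9.17 and 8.51 FPKM in WT and at 10.55, 20.74, 22.05, 19.44 and 22.36 in cKO (log2 fold change 0.92, SE 0.218, adjusted p = 0.00554). It was the least abundant cytosolic member in both groups. Tars1, the threonine enzyme, ran from 17.24 to 26.71 FPKM in WT (median 19.65) and was at 23.09, 41.35, 42.38, 37.31 and 42.28 in cKO (0.81, SE 0.183, adjusted p = 0.00427). Wars1, the tryptophan enzyme and a gene known to respond to interferon, ran from 19.28 to 29.69 FPKM in WT (median 22.22) and was at 28.99, 45.3, 45.33, 37.77 and 40.05 in cKO (0.71, SE 0.152, adjusted p = 0.00315). Unlike at the genes before it, WT 2 and not WT 3 was its highest WT library. Nars1, the asparagine enzyme, ran from 51.37 to 69.85 FPKM in WT (median 59.47) and was at 56.63, 104.11, 107.7, 87.77 and 113.99 in cKO (0.63, SE 0.176, adjusted p = 0.0134). Over the whole cytosolic set, cKO 1 lay within the WT range at 10 of 19 genes, above it at 8 and below it at 1. Libraries cKO 2 to 5 all lay above every WT library at 15 of 19, a count that leaves out a library seen near WT. The share over all genes on that rule was not taken. With cKO 1 included, the count was 7 (36.8%), beside 10.6% of all genes tested.

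**Figure D4:**
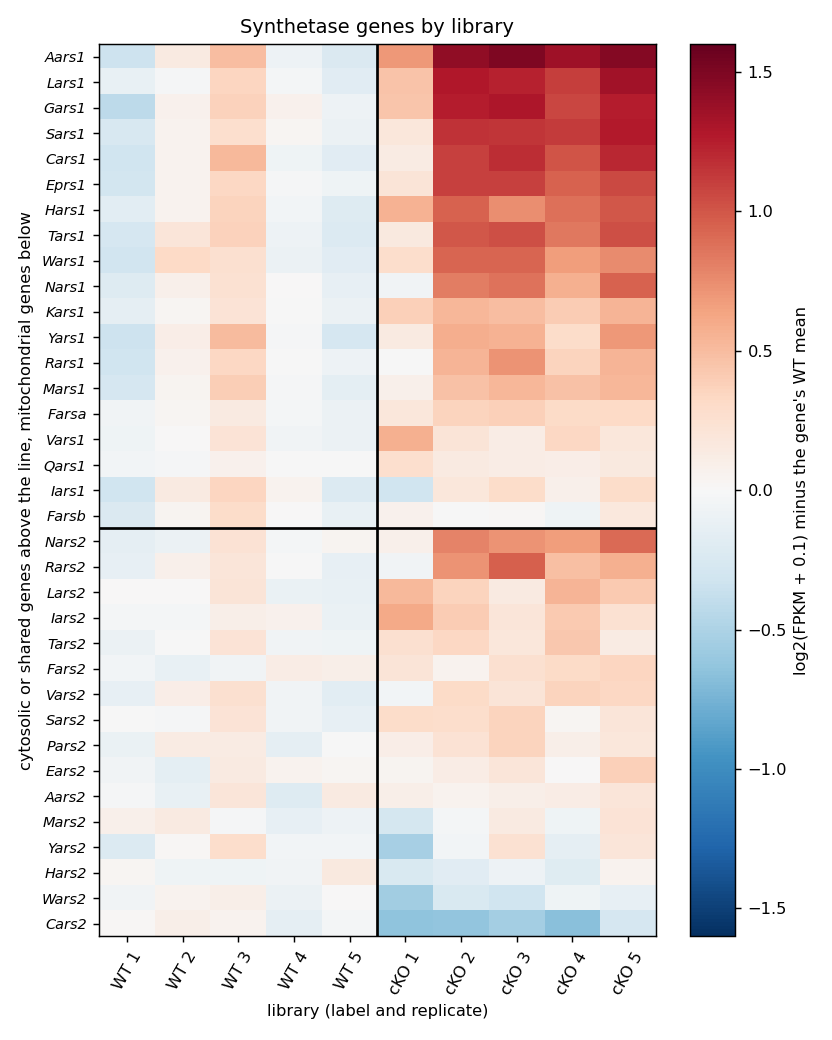
Log2(FPKM + 0.1) of the 35 genes (rows, cytosolic or shared above the line and mitochondrial below, each ordered by log2 fold change) in the 10 libraries (columns), less the mean of the gene over the 5 WT libraries. Red is higher and blue lower; the column of cKO 1 is paler than those of cKO 2 to 5 over most cytosolic rows but is the darkest of its label at Vars1, Qars1 and Iars2.

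The 7 members of the multisynthetase complex on the list moved unequally, with a median log2 fold change of 0.43, 6 higher on adjusted p, beside 16.7% of all genes tested, and 3 higher without overlap, beside 10.6%. Besides Lars1, the largest change was that of Eprs1, which joins the glutamate and proline enzymes in a single protein. It was at 15.58, 19.88, 23.96, 18.83 and 18.14 FPKM in WT and at 21.98, 41.03, 40.75, 36.77 and 39.65 in cKO (0.88, SE 0.176, adjusted p = 0.00218). Kars1, the lysine enzyme, which like Gars1 also serves mitochondria, was at 54.13 to 69.54 FPKM in WT and at 77.86 to 86.99 in cKO (0.47, SE 0.0724, adjusted p = 0.000477). Its groups did not overlap, and cKO 1, at 77.86, was close to the rest of its label. Qars1, the glutamine enzyme, showed the smallest rise that passed, from 28.1 ± 0.852 to 31.4 ± 1.52 FPKM (SD, n = 5 each), and its highest library was cKO 1 at 33.93 (0.16, SE 0.053, adjusted p = 0.0319). For Qars1 a two-sided exact permutation test reached its floor of p = 0.00794 for 5 libraries a side, since all 5 libraries labelled cKO were above all of WT. Rars1, the arginine enzyme (0.43, adjusted p = 0.0317), and Mars1, the methionine enzyme (0.41, adjusted p = 0.0221), were higher with overlapping groups. At Iars1, the isoleucine enzyme, no difference was detected, with 35.13 to 55.55 FPKM in WT and 35.09 to 53.56 in cKO (0.11, SE 0.148, adjusted p = 0.59), although its promoter held the element. Of the complex genes that are not synthetases on the list, the scaffold genes Aimp1 (0.46, SE 0.0741, adjusted p = 0.000589) and Eef1e1 (0.42, SE 0.149, adjusted p = 0.0377) were higher, and Aimp2 was at 22.3 ± 3.62 and 25.6 ± 4.53 FPKM (SD, n = 5 each; adjusted p = 0.316).

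Among the other cytosolic genes, Hars1, the histidine enzyme, had the clearest separation. It was at 60.23, 70.14, 86.6, 65.35 and 58.28 FPKM in WT and at 98.86, 130.06, 113.08, 124.45 and 133.97 in cKO (0.82, SE 0.118, adjusted p = 0.000328). Vars1, the valine enzyme, was highest in cKO 1 at 89.46 FPKM, with 65.77 to 75.96 in cKO 2 to 5 and 56.61 to 70.18 in WT (0.28, SE 0.0924, adjusted p = 0.0294). Here the library nearest to WT at Sars1 was the farthest from it. Yars1, the tyrosine enzyme, was at 16.8 ± 4.16 and 22.7 ± 3.47 FPKM (0.45, SE 0.163, adjusted p = 0.0423; SD, n = 5 each), just inside the threshold. The phenylalanine enzyme is a tetramer of alpha and beta chains, and their genes differed. Farsa, the alpha chain, was at 24.29, 25.9, 28.05, 24.78 and 23.81 FPKM in WT and at 28.84, 32.38, 32.92, 31.32 and 31.74 in cKO, without overlap (0.31, SE 0.0631, adjusted p = 0.00238). Farsb, the beta chain, was at 39.32, 47.55, 56.54, 46.37 and 42.28 FPKM in WT and at 48.23, 45.67, 46.59, 43.81 and 51.91 in cKO (0.03, SE 0.0933, adjusted p = 0.794), and its sign turned with the scaling of the libraries. Over the 19 cytosolic genes, the groups did not overlap at 7 (36.8%), all higher, beside 10.6% of all genes tested. Calls of Qars1, Vars1, Rars1 and Yars1 were lost in 9 to 11 of 21 alternative settings, each with its direction kept.

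By structure, synthetases fall into class I and class II, which differ in the fold of their catalytic domain. The medians of the classes were close over all 35 genes, at 0.37 for 19 class I genes and 0.39 for 16 class II genes. Within the cytosolic set they were 0.44 over 10 and 0.81 over 9 genes, and within the mitochondrial set 0.15 over 9 and 0.23 over 7. The 13 cytosolic genes known as ATF4 targets had a median of 0.81, with 12 higher on adjusted p. The other 6 had a median of 0.37, with 5 higher. Most genes of both groups thus passed as higher, where 16.7% of all genes tested did. These medians describe the genes and carry no test. Of the cytosolic genes with the promoter element, the changes were 1.29 for Aars1, 1.07 for Gars1, 0.81 for Tars1, 0.45 for Yars1 and 0.11 for Iars1. In the 7 without it they were 0.98 for Sars1, 0.88 for Eprs1, 0.47 for Kars1, 0.41 for Mars1, 0.31 for Farsa, 0.16 for Qars1 and 0.03 for Farsb, so the ranges overlapped.

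In the mitochondrial set, Nars2, Rars2, Lars2, Iars2 and Tars2 were higher. Nars2, the asparagine enzyme of the organelle, was at 3.06, 3.17, 4.02, 3.32 and 3.5 FPKM in WT and at 3.61, 5.94, 5.65, 5.44 and 6.43 in cKO (0.63, SE 0.156, adjusted p = 0.00702). As at the cytosolic Sars1, cKO 1 lay within the WT range and the other 4 above it. Rars2, the arginine enzyme, was at 14.64, 16.95, 18.35, 15.95 and 14.59 FPKM in WT and at 15.44, 26.54, 31.08, 22.38 and 23.73 in cKO (0.53, SE 0.161, adjusted p = 0.0193), with the same arrangement. Iars2, the isoleucine enzyme and the most abundant mitochondrial member, behaved otherwise. It was at 18.59, 18.49, 20.31, 19.96 and 17.6 FPKM in WT and at 28.87, 25.21, 21.68, 25.4 and 22.45 in cKO, so the groups did not overlap and cKO 1 was the highest (0.37, SE 0.0841, adjusted p = 0.00422). It was the only mitochondrial gene of 16 (6.25%) that was higher without overlap, a share below the 10.6% of all genes tested. Lars2, the leucine enzyme, went from 6.84 ± 0.662 to 9.05 ± 0.976 FPKM (0.40, SE 0.101, adjusted p = 0.00788), and Tars2, the threonine enzyme, from 10.6 ± 1.01 to 12.7 ± 1.09 FPKM (0.27, SE 0.0864, adjusted p = 0.0268; SD, n = 5 each). The call of Tars2 was lost in 8 of 21 alternative settings.

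Of the 35 members, 5 had fitted changes below 0, and Cars2 was the sole one that passed as lower. It encodes the mitochondrial cysteine enzyme, which is also known to make cysteine persulfides. It was at 6.17, 6.47, 6.31, 5.5 and 5.93 FPKM in WT and at 3.85, 3.88, 4.12, 3.78 and 5.04 in cKO, without overlap, and cKO 5 was nearest to WT. Its level fell by 0.55 on the log2 scale (SE 0.103, adjusted p = 0.00143), a fall shared by 5 of 5 libraries. Groups that did not overlap, with cKO lower, were found at 21.6% of all genes tested. The fall of Cars2 no longer passed under quantile normalization.

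The remaining 10 mitochondrial genes did not pass the test. Fars2 (phenylalanine), Sars2 (serine), Vars2 (valine), Pars2 (proline), Ears2 (glutamate) and Aars2 (alanine) had log2 fold changes of 0.11 to 0.23, with adjusted p from 0.0623 for Fars2 to 0.396 for Aars2. The least abundant of the 35 genes was Ears2 in WT, at 2.72 ± 0.218 FPKM, and Wars2 in cKO, at 2.52 ± 0.333 (SD, n = 5 each). Mars2 (methionine) was at 7.71 ± 0.629 and 7.74 ± 1.04 FPKM, and Yars2 (tyrosine) at 12.6 ± 1.66 and 12.3 ± 2.48 FPKM (SD, n = 5 each). Their fitted changes were near 0 and changed sign between settings. Hars2 (histidine) was at 10.99 to 12.94 FPKM in WT and 9.76 to 11.99 in cKO (-0.13, adjusted p = 0.203), and Wars2 (tryptophan) at 2.83 to 3.22 FPKM in WT and 2.03 to 2.88 in cKO (-0.26, adjusted p = 0.107). Both had cKO 1 as their lowest library.

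For each of the 16 mitochondrial genes a cytosolic gene for the same amino acid was on the list, and with Eprs1 counted for glutamate and proline and Fars2 set against both phenylalanine chains this gave 17 pairs. The median difference of log2 fold changes within a pair, cytosolic less mitochondrial, was 0.54, and the cytosolic change was the larger in 13 pairs. Comparing the genes of a pair within each library removes any scaling of that library. The widest gap in change, 1.47, was that of Cars1 and Cars2, whose log2 ratio was 1.43 to 2.39 in cKO and lower in all WT libraries. The log2 ratio of Aars1 to Aars2 was 1.48 to 2.16 in WT and 2.46 to 3.27 in cKO. For histidine, tryptophan and tyrosine the ratios did not overlap either, which made 5 pairs higher and 0 lower. The log2 ratio of Hars1 to Hars2 was 2.16 to 2.96 in WT and 3.33 to 3.67 in cKO. At isoleucine the mitochondrial gene had the larger change (0.37 against 0.11), and at arginine it did too (0.53 against 0.43), both with overlapping ratios. Asparagine was the pair in which both genes rose by the same 0.63.

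**Figure D5:**
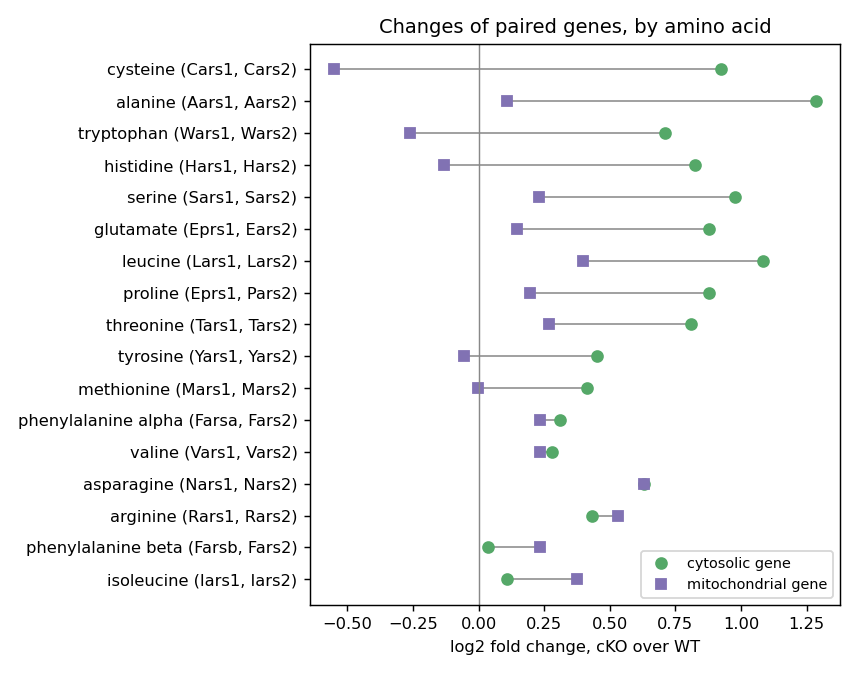
Log2 fold changes (cKO over WT) of the cytosolic gene (circle) and the mitochondrial gene (square) for the same amino acid, ordered by their difference. The cytosolic circle lies to the right in 13 of 17 pairs, by most at cysteine (0.92 against -0.55), and the symbols coincide at asparagine (0.63 for both).

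Some members share exon bases with a neighbour, and whether fragments were counted by strand is not given in the sources used here. In the GENCODE vM39 annotation, 16 of the 35 share exon bases with another protein-coding gene, all 16 with one on the opposite strand and Aars1 also with one on its own strand, Exosc6. Mars1 shares 3576 of its 7580 exon bases with Ddit3, the stress factor CHOP, which was itself higher (log2 fold change 1.17, adjusted p = 6.99e-05). Cars2 shares 4080 of 14007 with Naxd, Yars2 3594 of 11433 with Dnm1l, and Mars2 3827 of 11294 with Boll. Hars1 and Hars2 lie head to head and share 198 bases, while their changes were 0.82 and -0.13. For these genes, fragments of the neighbour may be counted in the value, and this was not tested.

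Outside the list, Tars3, a further cytosolic threonine enzyme, was higher, at 10.12 to 13.84 FPKM in WT and 16.44 to 21.12 in cKO (0.81, SE 0.105, adjusted p = 0.000207), the same change as that of Tars1 to 2 decimals but with cKO 1 clear of WT. Mitochondria have no glutamine enzyme and amidate glutamate on the transfer RNA instead. Of that enzyme's 3 chains, Qrsl1 was higher (0.49, SE 0.115, adjusted p = 0.00536), while Gatb (0.12, adjusted p = 0.524) and Gatc (0.13, adjusted p = 0.117) did not pass. The selenocysteine enzymes Sepsecs and Pstk and the formylase Mtfmt had changes of 0.12, -0.10 and 0.03, with adjusted p of at least 0.201.

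Genes that make, export or proofread transfer RNA were mostly higher. On adjusted p 5 of 8 were higher and 1 lower, beside 16.7% and 28.3% of all genes tested. Xpot, which exports transfer RNA from the nucleus, was at 32.36, 37.06, 41.02, 34.48 and 32.62 FPKM in WT and at 39.54, 65.59, 66.13, 60.39 and 67.67 in cKO (0.73, SE 0.143, adjusted p = 0.00184), with cKO 1 inside the WT range as at Sars1. Trnt1, which adds the CCA end that synthetases charge, was higher without overlap (0.60, SE 0.0806, adjusted p = 0.000232), as was Elac2, which trims the 3′ end of precursors (0.80, SE 0.139, adjusted p = 0.00093). The deacylases Dtd1 and Dtd2, which clear wrongly charged transfer RNA, were higher by 0.54 and 0.67 on the log2 scale (adjusted p = 0.00115 and 0.000287). Elac1 fell by 0.75 (SE 0.139, adjusted p = 0.00133), and the editing factors Aarsd1 (0.15, adjusted p = 0.583) and Prorsd1 (0.18, adjusted p = 0.245) did not pass. At the ribosome, 3 of 5 cytosolic elongation factor genes were higher, beside the same 16.7% of all genes tested. These were Eef2 by 0.39, Eef1g by 0.29 and Eef1b2 by 0.18, while Eef1a1 (0.06) and Eef1d (0.18) did not pass. Of 4 mitochondrial translation factor genes, Gfm1 was higher by 0.70 (SE 0.0985, adjusted p = 0.000299), and Tsfm (0.32), Gfm2 (0.22) and Tufm (-0.18) did not pass.

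The wider amino acid response, 24 genes regulated through ATF4 in other settings, had a median log2 fold change of 1.22. On adjusted p 18 were higher and 3 lower, beside 16.7% and 28.3% of all genes tested. Its largest changes among genes of at least 1 FPKM were those of the pseudokinase gene Trib3 (log2 fold change 6.43, adjusted p = 7.88e-05), of Cth, which makes cysteine from cystathionine (adjusted p = 0.00021), and of Chac1, which breaks down glutathione (2.78, adjusted p = 0.0106). Trib3 was at 3.6 FPKM in cKO 1, at 39.11 to 52.48 in cKO 2 to 5 and at 0.09 to 0.33 in WT, and Cth was at 1.14 in cKO 1, at 12.91 to 24.01 in cKO 2 to 5 and at 0.06 to 0.21 in WT. The mean of log2(FPKM + 0.1) over the list was 2.46 to 2.59 in WT, 2.62 in cKO 1 and 3.99 to 4.33 in cKO 2 to 5. Thus the library in which Sars1, Cars1, Eprs1, Tars1 and Nars1 lay within the WT range was also the one in which this list was lowest of its label, while its erythroid list, at 7.46 on the same scale, was the highest of all 10 libraries. Its neutrophil list was the highest as well, at 7.04 on that scale with 2.40 to 5.77 in cKO 2 to 5 and 5.73 to 6.14 in WT. As a sum of FPKM, that list was lower in cKO 1 than in every WT library (2598.43 against 2736.71 to 3713.43). Within it, S100a9, a gene of maturing neutrophils, was at 894.75 FPKM in cKO 1 and at 7.57 to 157.68 in the other libraries. Mpo, a gene of earlier granulocyte precursors, was at 277.33 FPKM in cKO 1, within the 49.43 to 391.92 of cKO 2 to 5. In WT, Mpo was at 973.78 to 1345.98 FPKM. Both genes were named after their values were seen. WT 3, the highest WT library at 18 of 19 cytosolic genes, had the highest erythroid mean of WT (6.52, with 5.26 to 5.75 in the others) and an amino acid response within WT (2.56). Whether any of these lists has a part in the synthetase changes was not tested. Atf4 itself, named after its values were seen, was at 67.06 to 88.77 FPKM in WT, at 76.76 in cKO 1 and at 137.39 to 179.68 in cKO 2 to 5 (0.81, SE 0.198, adjusted p = 0.00642). Among the kinases that act upstream of it, Eif2ak4, which senses uncharged transfer RNA, was at 6.47 ± 0.556 and 5.59 ± 0.603 FPKM (SD, n = 5 each; adjusted p = 0.111), and Eif2ak1 (0.09) and Eif2ak2 (0.18) did not pass. The latter, known to be induced by interferon, was highest in cKO 1, at 37.56 FPKM with 14.41 to 30.84 in the other libraries. Eif2ak3, the kinase of the endoplasmic reticulum, fell by 0.79 (SE 0.125, adjusted p = 0.000561).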

How the data were processed

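RNA-seq was measured in 5 libraries labelled WT and 5 labelled cKO. The authors aligned reads to GRCm39 and deposited FPKM per gene and library. Per the submitters' processing notes, the tools were cutadapt 1.9.1, HISAT2 2.0.1 and HTSeq 0.6.1; the annotation and gene lengths are not given in the sources used here. Because FPKM are not counts, the DESeq2 test of the authors was not run. Libraries were grouped by label, and symbols and positions came from GENCODE vM39, in which 54749 of the 55359 genes were found. Depth was read from genes with 1 transcript, where 91.7% to 94.7% of low values lay within 0.2 of a whole fragment. No pair of libraries of a group was alike within sampling noise (chi-square per degree of freedom at least 4.21).

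Limma 3.58.1 in R 4.3.3 (moderated, with an intensity trend, two-sided, no covariate) was fitted to log2(FPKM + 0.1) of the 18742 genes whose mean reached 0.1 FPKM, with Benjamini-Hochberg adjustment over all of them. On that scale changes of low genes come out too small. SE is the moderated standard error. Calls used an adjusted p under 0.05, alone or with a 2-fold change. The exact permutation test compared means of log2(FPKM + 0.1). The test was checked on simulated data. Figures and promoter searches used Python 3.11.15.

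The text names all 35 genes, Dhx9, Tars3, all genes of the lists on complex scaffold, indirect and selenocysteine charging, transfer RNA supply, elongation and stress kinases, and up to 3 genes with the largest change among those of at least 1 FPKM of the amino acid response. Some items are not reported here. The members and lists, from general knowledge, were chosen with earlier results of these data known. The alternatives changed the pseudocount (0.01, 1), the filter (none, 1 FPKM) or the scaling (median-ratio, equal sum, quantile), dropped the trend, added a block for replicate number or a covariate for Xist above 1 FPKM, left out each library in turn, or used a stricter promoter sequence. Leaving out cKO 1 and WT 3 together was chosen after seeing the data. Same-numbered libraries of the 2 labels did not deviate together (correlations -0.0767 to 0.193 over 12353 genes), so the numbers do not pair them.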

Additional observations from a re-analysis of the deposited data

Results flagged for a closer look

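Of 70 groups (35 genes in each label), 9 held a single library that Dixon's criterion sets apart, where chance flags about 1 in 20 groups, or 3.5 here. In 6 of the 9 that library was cKO 1, and at each of these genes it was low. Aars1 was at 29.96 FPKM there and at 47.53 to 52.47 in the others labelled cKO, Cars1 at 10.55 (others 19.44 to 22.36), and Eprs1 at 21.98 (36.77 to 41.03). Mars1 was at 40.51 FPKM (52.79 to 55.41), Sars1 at 36.41 (69.97 to 77.67) and Tars1 at 23.09 (37.31 to 42.38). All 6 are cytosolic and on the list of ATF4 targets, which holds 13 of the 19 cytosolic genes. Library cKO 1 lay below all others of its label at 12 of these 13. It did so at 4 of the other 6 cytosolic genes too, and at 27.1% of all genes tested. Library WT 3 was high at Lars1, at 37.75 FPKM (others 26.2 to 29.31), and at Tars2, at 12.33 (9.84 to 10.5). Cars2 was high in cKO 5, at 5.04 FPKM (others 3.78 to 4.12).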

How the results depend on the processing

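In every setting run, 12 to 18 of the 19 cytosolic genes were called higher on adjusted p and 0 lower. The covariate for Xist was among the settings that gave 12. With it, 2035 of all genes tested were higher on adjusted p, where the main fit gave 3138. The count of mitochondrial genes higher on adjusted p, 5, became 9 with median-ratio scaling, 11 with quantile normalization and 2 with a covariate for Xist, and the 1 lower became 0 with quantile normalization, under which the mitochondrial median was 0.42. The 2-fold cytosolic count of 3 was 5 with the covariate for Xist and 7 in the 8 libraries without cKO 1 and WT 3, where the cytosolic median was 0.86. Leaving out 1 library at a time gave 2 to 6 (6 without cKO 1, 5 without WT 3), with 12 to 17 cytosolic and 4 to 7 mitochondrial genes higher on adjusted p. The cause was not tested. Of the 23 genes that passed, 13 did so in all 21 settings. Qars1 and Yars1 lost the call in 11 settings, Vars1 in 10, Rars1 in 9, Tars2 in 8, Mars1 in 2, and Nars1, Cars2, Lars2 and Rars2 in 1 each.

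The sign turned only at genes that did not pass. With median-ratio scaling, Mars2 was at 0.069 and Yars2 at 0.013. With an equal sum per library, Farsb and Mtfmt were both at -0.0067. Quantile normalization gave -0.044 for Farsb, 0.1998 for Mars2, 0.197 for Wars2, 0.048 for Yars2, 0.398 for Pstk and 0.039 for Eif2ak4. The covariate for Xist gave 0.042 for Yars2 and -0.0065 for Aarsd1. In the 8 libraries, Mars2 was at 0.062 and Yars2 at 0.131. With 1 library left out, Farsb ranged from -0.0227 to 0.108, Mars2 from -0.0574 to 0.0675, Yars2 from -0.131 to 0.0604 and Eif2ak1 from -0.0135 to 0.130.

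With the replicate number as a block, 15 cytosolic and 4 mitochondrial genes were higher on adjusted p and 3 cytosolic genes at 2-fold. Of the 5 pairs of numbers, only replicates 1 and 5 correlated best with their own number. Depth was read from the values and not from counts, so no counting interval is given.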
